A study of Rattus norvegicus with 113 samples.

Results

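The genes described here are the rat members of the MHC class I antigen processing machinery: B2m, Tap1, Tap2, Tapbp, Tapbpl, Psmb8, Psmb9 and Psmb10. They were taken as the probes whose RefSeq accession in the array files maps to one of these symbols, which found all 8 genes on both array designs used, through 10 probes on the larger design and 8 on the smaller, out of 16581 and 15637 named genes. Messenger RNA of the hippocampus and the ipsilateral cortex of adult male Sprague-Dawley rats was measured on 113 Agilent arrays with 1 dye. TBI rats had received a parasagittal fluid percussion injury (graded moderate in the sample labels and severe in the methods), sham rats the same surgery and anesthesia without the injury, and naive rats neither. Rats were killed 24 hr, 2 weeks, 3, 6 or 12 months later, and every group held 4 arrays but for hippocampus at 24 hr, where 2 sham and 3 TBI arrays were used and naive arrays were not. Hippocampal arrays of 24 hr and 3 months were of the smaller design (17 arrays), on which B2m, Psmb8 and Tap2 are read by other probes than on the larger design (96 arrays), so their levels are not set against the rest.

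Every nucleated cell displays fragments of its own proteins on MHC class I molecules, which cytotoxic T cells inspect. The proteasome cuts the proteins, a pump in the membrane of the endoplasmic reticulum carries the peptides in, and a loading complex fits them onto a class I heavy chain paired with beta-2 microglobulin. Healthy brain tissue, and neurons above all, holds little of this machinery, while microglia and endothelial cells hold more, and interferons raise nearly all of its genes together. Tap1 and Tap2 encode the 2 chains of the peptide pump, Tapbp encodes tapasin, which bridges pump and class I molecule, and Tapbpl encodes a related peptide editor that works apart from the pump. Psmb8, Psmb9 and Psmb10 encode the immunoproteasome subunits that take the places of the standard catalytic subunits Psmb5, Psmb6 and Psmb7, and B2m encodes the light chain of every class I molecule.

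Sequence around the start sites is shown for these genes because interferons act on such genes through short promoter elements. The RefSeq promoter window of each gene (build GRCr8) was searched on both strands for the interferon-stimulated response element core GAAANNGAA, the gamma-activated site TTCNNNGAA and the kappa B site GGNNNTTCC, with overlapping copies counted separately. The stretches below are written along the strand of the gene, with the matched letters in capitals: B2m at chr3:129549170-129549211 (plus strand), Tap1 at chr20:4668579-4668673, Tap2 at chr20:4652319-4652347, Tapbp at chr20:4967879-4967947, Psmb8 at chr20:4657258-4657281 and Psmb10 at chr19:50743293-50743375 (all minus strand). Each window is counted from 1 start site per gene; the stretch of Tapbp lies upstream of the start used there but within the annotated extent of the gene, which reaches farther.
B2m: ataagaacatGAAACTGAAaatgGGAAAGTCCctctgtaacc
Tap1: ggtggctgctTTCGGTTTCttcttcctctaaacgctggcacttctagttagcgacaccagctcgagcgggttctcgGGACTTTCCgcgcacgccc
Tap2: gcagcgaagtGAAAGCGAAagcccgggac
Tapbp: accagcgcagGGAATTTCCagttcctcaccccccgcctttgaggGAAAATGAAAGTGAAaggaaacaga
Psmb8: agctgTTCCCAGAAgatgcccctc
Psmb10: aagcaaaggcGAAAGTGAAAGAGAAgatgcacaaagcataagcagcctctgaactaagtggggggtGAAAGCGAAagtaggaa
The response element core was found in 6 of the 8 windows, against 9.5% of the 27457 windows of all genes; Psmb8 holds its copy across its start site, which is not printed. The kappa B letters were found in 3 of 8 (B2m, Tap1 and Tapbp) against 18.3% of all windows, and the gamma-activated letters in 1 of 8 (Psmb8) against 8.68%. Psmb9 and Tapbpl hold no response element core in their windows. Tap1 and Psmb9 are neighbours, and their windows share 44 bases. Such matches describe letters in a window and were not tested as binding sites, and their part in the differences after injury was not tested.

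All levels below are log2 of the signal over the median of the array, and differences are log2 differences fitted by limma with their standard error (SE). A probe was tested if all arrays of either compared group read it well above background, and a difference was called at an adjusted p under 0.05 over all tested probes. The share of probes well above background ranged over arrays from 41.24% to 93% (median 55.96%), and no probe was saturated. One array stood apart from the rest: cortex sham replicate 3 at 2 weeks, the one at 93%, had a median signal of 1806 against 39.3 to 44.0 in the other sham arrays of its group, and the median TBI minus sham difference over all tested probes was 0.95 with it and 0.01 without it. For the cortex at 2 weeks, the calls of the 8 genes between TBI and sham are therefore given with and without that array. Differences of other genes and markers, ratios and changes of the TBI effect are given without it. With it, 2 of 23578 probes were called higher in TBI than in sham and 0 lower, so the larger counts below hold only without it. Sham and TBI arrays lay on 1 slide for hippocampus of 2 weeks, 3 months and 12 months and for cortex of 3 and 12 months. Elsewhere the slide cannot be told apart from the injury, nor, for hippocampus at 24 hr, can the day of scanning. Where sham and TBI arrays shared a slide the naive arrays lay on another, so comparisons with naive rats there hold slide and surgery together. At 2 weeks the tissues matched their labels by the summed level of 8 hippocampal markers. It was 436.5 to 577.8 times the array median in hippocampal arrays and 168.0 to 240.8 in TBI arrays of the cortex. Cortex sham arrays other than replicate 3 were at 194.9 to 205.1 and naive ones at 73.4 to 236.9. Of these markers, Tdo2 and Lct were well above background in at most 1 array of a tissue.

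In the hippocampus at 24 hr, Psmb9 and Tap1 were called higher in TBI than in sham. Psmb9 was at 2.58 and 3.36 in the sham arrays and at 5.19, 4.55 and 4.69 in the TBI arrays. All 3 TBI arrays lay above both sham arrays, and the difference was 1.84 ± 0.30 (SE), a 3.58-fold change (adjusted p = 0.0153). Tap1 was at -0.36 and -0.16 in the sham arrays and at 1.30, 0.92 and 0.68 in the TBI arrays, again without overlap, a difference of 1.22 ± 0.21 (2.34-fold, adjusted p = 0.0187). These were 2 of the 7 genes tested, against 5.57% of all probes called higher.

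Psmb8, the partner of Psmb9 in the immunoproteasome, read 1.66 and 3.11 in sham and 4.93, 3.91 and 3.98 in TBI hippocampus at 24 hr, a difference of 1.89 ± 0.49 that missed the threshold (adjusted p = 0.055). The sham arrays lay 1.45 apart, and the error of the difference was wider than that of Psmb9. Tap2 (2.28 and 2.14 in sham, 3.53, 3.00 and 2.69 in TBI) differed by 0.86 ± 0.26 (adjusted p = 0.0759). Tapbp (1.76 and 2.12 in sham, 3.18, 2.85 and 2.37 in TBI) differed by 0.86 ± 0.26 (adjusted p = 0.0805). For these 3 genes too the groups did not overlap, so 5 of 7 genes were without overlap against 22.8% of all probes, and the same 5 passed a 1.4-fold change with an unadjusted p under 0.05, against 11.1%.

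B2m and Psmb10 gave no such separation. B2m differed by 0.10 ± 0.14 (sham 6.74 and 6.77; TBI 6.97, 6.83 and 6.75) and Psmb10 by 0.06 ± 0.14 (sham 6.36 and 6.28; TBI 6.48, 6.30 and 6.37). Tapbpl was well above background in 2 of 3 TBI arrays and 1 of 2 sham arrays and was not tested. The median difference of the 7 genes was 0.86, against -0.02 over all tested probes. The calls rest on few arrays: without sham replicate 1, Psmb9 had an adjusted p of 0.0721 and Tap1 of 0.102, and Tap1 also missed the threshold without sham replicate 2 (0.0750) or TBI replicate 2 (0.0506). Both calls ended with the replicate block (adjusted p of 0.0869 for Psmb9 and 0.0631 for Tap1) and without the filter (0.112 and 0.129), and that of Tap1 with the deposited table (0.0535).

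In the hippocampus at 2 weeks Tap1 was the gene called higher after TBI. It was at 0.03, 0.46, 0.18 and 0.70 in the sham arrays, at 0.61, 0.66, 0.13 and 0.98 in the naive arrays, and at 1.62, 1.00, 1.63 and 1.38 in the TBI arrays. Every TBI array exceeded every sham and naive array, by 1.07 ± 0.20 over sham (2.09-fold, adjusted p = 0.0339) and by 0.81 ± 0.20 over naive (adjusted p = 0.0253). Against sham, 1 of 7 genes was called where 1.06% of all probes were, and 1 of 7 was without overlap (2.56% of all probes); against naive, 1 of 8 was called where 4.18% were. The difference from sham missed the threshold without sham replicate 2, 3 or 4 or TBI replicate 1, 3 or 4 (adjusted p of 0.0553 to 0.114), with the replicate block (0.0668), without the filter (0.128) and in a fit of the TBI and sham arrays alone (0.0574).

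The immunoproteasome pair lay close behind at 2 weeks. Psmb9 was at 2.94, 2.87, 3.31 and 3.32 in sham and 4.10, 3.30, 4.51 and 4.24 in TBI hippocampus, where TBI replicate 2 fell within the sham range (difference 0.92 ± 0.22, adjusted p = 0.0515). Psmb8 was at 3.00, 2.56, 3.35 and 2.92 in sham and 3.51, 3.12, 4.38 and 4.61 in TBI, with the same TBI array inside the sham range (0.95 ± 0.32, adjusted p = 0.105). B2m differed by 0.38 ± 0.11 (adjusted p = 0.0815; sham 8.03 to 8.39, TBI 8.30 to 8.79). Tap1, Psmb8 and Psmb9 passed the 1.4-fold change with an unadjusted p under 0.05, 3 of 7 genes against 2.72% of probes. Tap2, Tapbp and Psmb10 differed by 0.08, 0.19 and -0.07 with overlapping groups.

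**Figure D1:**
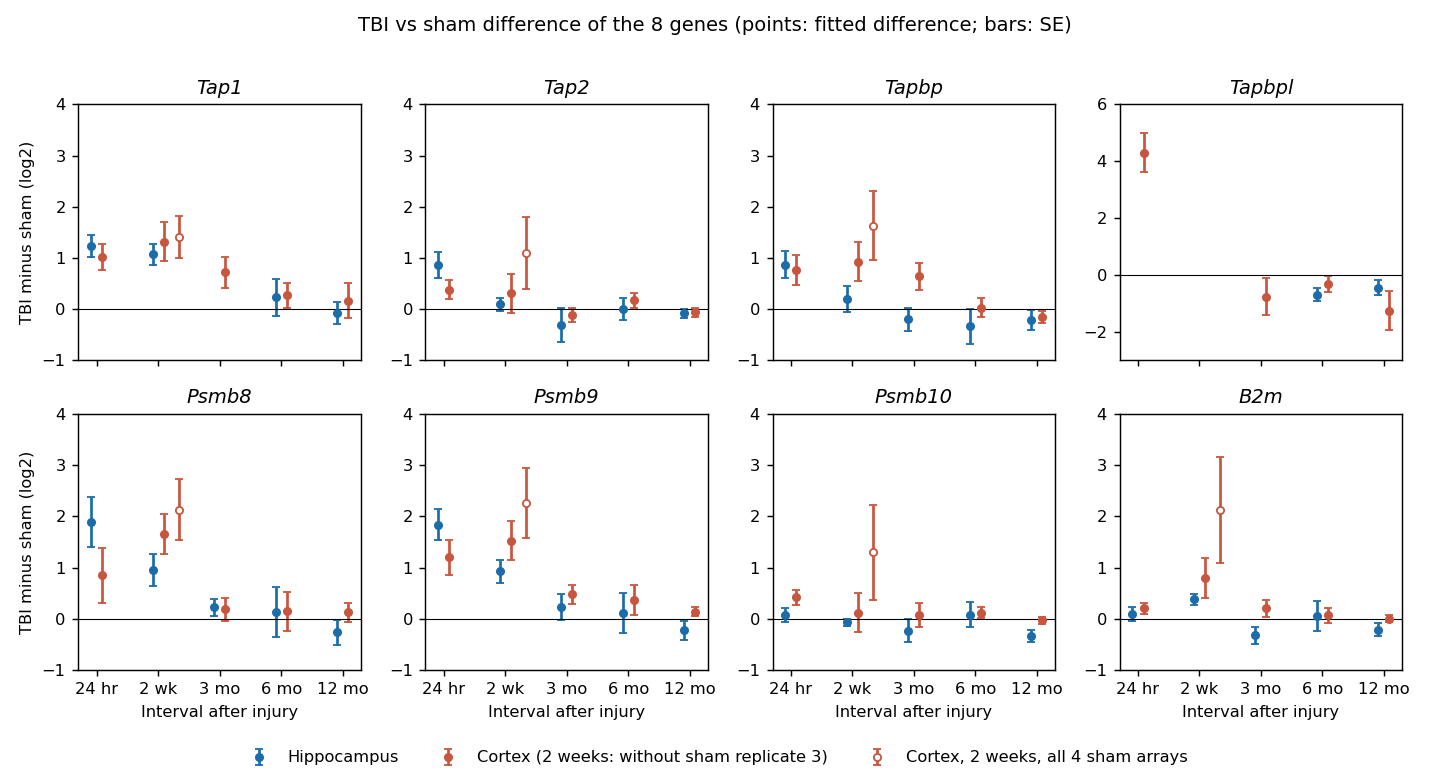
Fitted TBI minus sham difference (log2) of each gene on the vertical axis against the interval after injury, in hippocampus (blue) and cortex (red); bars are the SE, and open circles use all 4 cortex sham arrays at 2 weeks. Tap1, Psmb8 and Psmb9 lie highest at 24 hr and 2 weeks and near 0 at 12 months; the scale of Tapbpl differs, and intervals at which a gene was not tested are blank.

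In the cortex at 24 hr the same genes lay higher in TBI than in sham without passing the threshold. Psmb9 was at 3.21, 4.70, 3.56 and 4.50 in sham and 5.92, 5.18, 4.47 and 5.19 in TBI cortex (difference 1.20 ± 0.35, adjusted p = 0.0971). Tap1 was at 0.57, 1.73, 0.83 and 0.94 in sham and 2.22, 1.79, 1.66 and 2.43 in TBI (1.01 ± 0.26, adjusted p = 0.0799). In both genes 1 TBI array fell inside the sham range, and sham replicate 2 was the highest sham array. Psmb8 spanned 3.51 to 4.93 in sham and 3.52 to 6.40 in TBI (0.85 ± 0.54, adjusted p = 0.40), and Psmb10 6.42 to 6.68 and 6.67 to 7.40 (0.42 ± 0.15, adjusted p = 0.148). Tapbp differed by 0.77 ± 0.29, Tap2 by 0.38 ± 0.18 and B2m by 0.20 ± 0.11 (adjusted p of 0.165, 0.261 and 0.328). All 8 genes had a positive difference, with a median of 0.81 against 0.12 over all probes, and 4 passed the 1.4-fold change with an unadjusted p under 0.05, against 9.05% of probes.

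Against naive cortex at 24 hr, 3 of 8 genes were called higher in TBI, where 6.38% of all probes were. Psmb9 was at 3.84, 3.51, 3.44 and 3.91 in the naive arrays, below all TBI arrays (1.52 ± 0.35, adjusted p = 0.0158). Tap1 was at 0.66, 1.34, 1.26 and 0.96, also below all TBI arrays (0.97 ± 0.26, adjusted p = 0.0259). Psmb8 was at 3.88, 2.80, 2.87 and 3.49 and overlapped TBI in 1 array (1.75 ± 0.54, adjusted p = 0.0434). Both comparisons use the same TBI arrays. The count against naive was 0 without TBI replicate 1, and 1 without TBI replicate 4 or naive replicate 4. Between sham and naive cortex 0 of 7 genes tested were called (limma; 0 at an unadjusted p under 0.05). Over all 23809 probes of that comparison 227 were called higher and 4354 lower, and 8281 had an unadjusted p under 0.05.

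The gene called between TBI and sham cortex at 24 hr was Tapbpl, 1 of 8 where 0.213% of all probes were called higher. It was at -2.93, -2.72, -2.85 and -2.70 in the sham arrays, none of them well above background, and at 1.80, 1.50, 1.25 and 1.47 in the TBI arrays (measured means -2.80 and 1.51, adjusted p = 0.0406). The probe passed the filter through the TBI arrays alone, so the call sets signal against readings not told apart from background. Set against the lowest signal counted as well above background on each sham array (mean -1.13), the TBI mean was 6.22-fold higher. That value is not a firm lower limit, since the probe was not well above background in other arrays at levels up to 1.11, and normexp background correction gave a smaller difference of 1.50. Naive arrays, which shared a slide with sham, read 1.48, 1.35 and 1.20, near the TBI values, and -2.58 in replicate 2, near the sham values. The call missed the threshold when any array but TBI replicate 3 was left out (adjusted p of 0.0584 to 0.121) and under 75th percentile, quantile or the deposited scaling (0.0996 to 0.161) or with the replicate block (0.105).

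On the larger design Tapbpl fell into low and high arrays with a gap between them. There 11 of 96 arrays lay below the array median, from -3.73 to -1.80, all 11 not well above background, and the next array above them read 0.60. On the smaller design 5 of 17 arrays lay below the median. Values there also fell inside that gap, such as -0.77 (sham replicate 2 at 24 hr, well above background) and 0.12 (sham replicate 3 at 3 months). The low arrays were found in all treatments: in the cortex 4 sham arrays and 1 naive array at 24 hr, 1 sham and 1 TBI array at 2 weeks, and 1 TBI array each at 3 and 12 months. Animal numbers in the array names tie the hippocampus and cortex of 28 rats, at 2 weeks, 6 months and, for naive rats, 12 months. In 2 of them Tapbpl was below the array median in both tissues (cortex -2.11 and hippocampus -3.43 in sham replicate 4 at 2 weeks; -3.28 and -3.73 in TBI replicate 4), in 0 in 1 tissue only, and in the others above it in both. In 2 of those others the probe was above the median yet not well above background in 1 tissue (cortex at 1.11 in sham replicate 2 and hippocampus at 0.60 in sham replicate 3 at 2 weeks). No other gene of the 8 showed such a split on the larger design: the widest gap between neighbouring arrays of the other genes set off 1 array, or 2 for Psmb8.

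**Figure D2:**
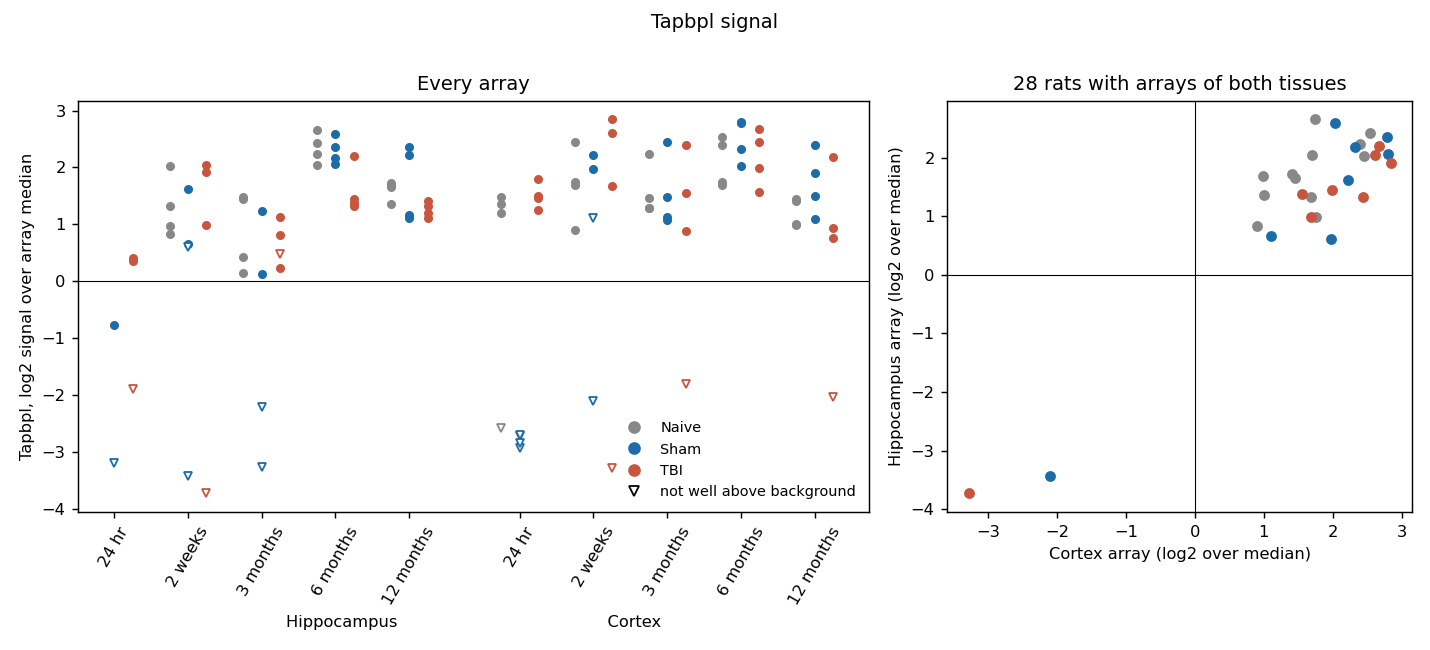
Left, Tapbpl level (log2 signal over the array median) of every array by tissue, interval and treatment, with open triangles for arrays in which the probe was not well above background. Right, the hippocampus level against the cortex level of the 28 rats with both: 2 rats lie below the array median in both tissues and 0 in only 1.

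In the cortex at 2 weeks no gene was called with all arrays: 0 of 7 by limma, against 0.00848% of probes called higher, with 4 of 7 at an unadjusted p under 0.05. Sham replicate 3 was the lowest sham array for 6 of the 7 tested genes, at 0.69 for Psmb9, 1.62 for Psmb8 and 3.22 for B2m, and with it the sham group had SDs of 1.47, 0.97 and 2.67. Without it, 3 of 7 genes were called higher in TBI, against 2.13% of all probes. Psmb8 was at 3.76, 3.38 and 3.49 in the 3 sham arrays left and 5.10, 5.35, 4.76 and 5.58 in TBI, a difference of 1.65 ± 0.40 (3.15-fold, adjusted p = 0.00493). Psmb9 was at 3.65, 3.42 and 3.79 in sham and 5.26, 5.29, 4.73 and 5.31 in TBI (1.53 ± 0.39, 2.88-fold, adjusted p = 0.0108). Every TBI array of both genes lay above every sham array. Tap1 was at 1.01, 0.48 and 1.18 in sham and 2.37, 2.56, 1.72 and 2.16 in TBI (1.31 ± 0.38, 2.48-fold, adjusted p = 0.0391).

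B2m, the light chain, was at 8.66, 8.46 and 8.52 in these sham arrays and 9.42, 9.47, 9.07 and 9.41 in TBI cortex at 2 weeks. The groups did not overlap, and the difference of 0.80 ± 0.39 was not called (adjusted p = 0.821). Tapbp was at 2.83, 2.23 and 3.19 against 4.08, 3.39, 3.27 and 3.97 (0.92 ± 0.39, adjusted p = 0.479). In all, 5 of 7 genes were without overlap, against 15.1% of probes, and 5 passed the 1.4-fold change with an unadjusted p under 0.05, against 4.99%. Tap2 and Psmb10 overlapped (0.30 ± 0.38 and 0.12 ± 0.38), and Tapbpl, with 3 of 4 TBI arrays well above background, was not tested. The SE of these values takes in naive replicate 4, which was low too (1.80 for Psmb9 against 3.18 to 3.88 in the other naive arrays). A fit of the TBI and sham arrays alone, chosen after seeing the data, called 4 of 7. That fit also called more of all 23578 probes, 1341 higher and 250 lower.

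**Figure D3:**
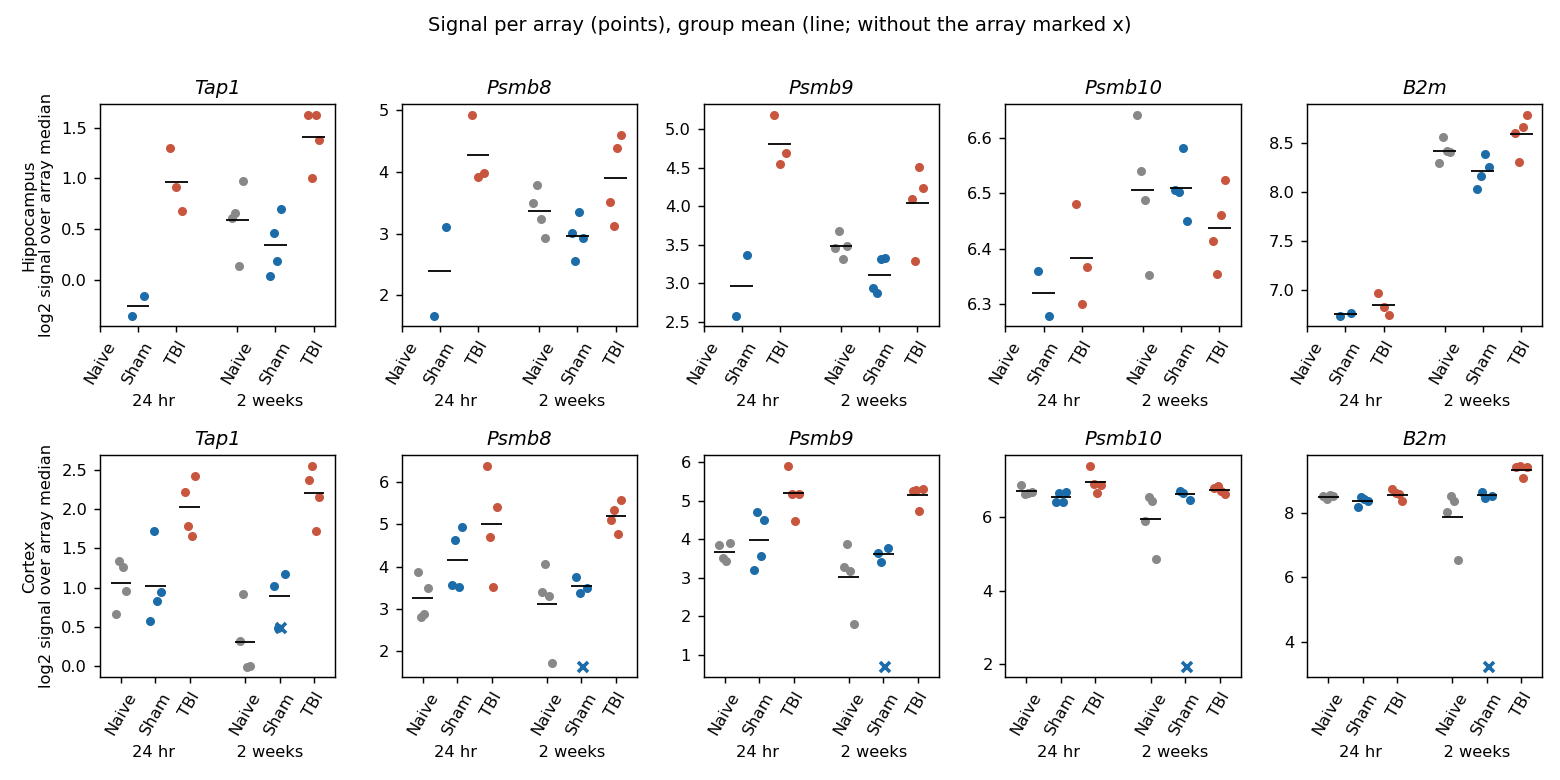
Level of 5 genes (log2 signal over the array median, vertical axis) in every array at 24 hr and 2 weeks, hippocampus above and cortex below, with naive arrays gray, sham blue and TBI red; lines are group means. The cross is cortex sham replicate 3 at 2 weeks, left out of its group mean. In the cortex at 2 weeks the 4 TBI arrays of Psmb9 lie between 4.73 and 5.31, above the sham arrays at 3.42 to 3.79.

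The mRNA signal of an immunoproteasome subunit was also read within each array as a ratio to that of the subunit it replaces. Such a ratio does not depend on the scaling of the array. It joins different probes, so only its change is read, and the share of assembled immunoproteasome was not measured. In the hippocampus at 2 weeks Psmb9 over Psmb6 was 1.96-fold higher in TBI (exact permutation test, two-sided, p = 0.0286, the smallest that 4 against 4 arrays allow) and Psmb8 over Psmb5 was 1.93-fold higher (exact p = 0.0857). In the cortex at 2 weeks without sham replicate 3 the same ratios were 2.68-fold and 3.02-fold higher (exact p = 0.0286 for each, the smallest possible). Psmb10 over Psmb7 was 0.97-fold (hippocampus) and 0.95-fold (cortex, exact p = 0.629 and 0.571). Tap1 over Tap2, the 2 chains of the pump, was 1.55-fold higher in the cortex at 24 hr (exact p = 0.0286) and 2.01-fold higher at 2 weeks without sham replicate 3. Of 40 ratios tested with all arrays, over 10 tissue and interval pairs, none passed the Benjamini-Hochberg adjustment of the exact test (lowest adjusted p = 0.308). A few ratios at the smallest possible exact p could not have passed it, so the adjustment cannot decide on single ratios.

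Psmb5, Psmb6 and Psmb7, which encode the standard catalytic subunits, were called in neither tissue at 24 hr or 2 weeks. In the hippocampus at 24 hr they differed by 0.21, 0.58 and 0.32 (adjusted p of 0.43, 0.0724 and 0.205), and at 2 weeks by -0.00, -0.05 and -0.03. Psme1 and Psme2, which encode the PA28 cap that feeds the immunoproteasome and respond to interferon gamma, were called higher in the hippocampus at 24 hr (0.90 ± 0.16, adjusted p = 0.0202, and 0.87 ± 0.16, adjusted p = 0.0232). At 2 weeks, cortex Psme1 without sham replicate 3 differed by 0.86 ± 0.39 and Psme2 by 0.66 ± 0.39, neither called. Psme3, a nuclear relative of PA28, and Psme4, which encodes the separate activator PA200, were called in neither tissue.

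**Figure D4:**
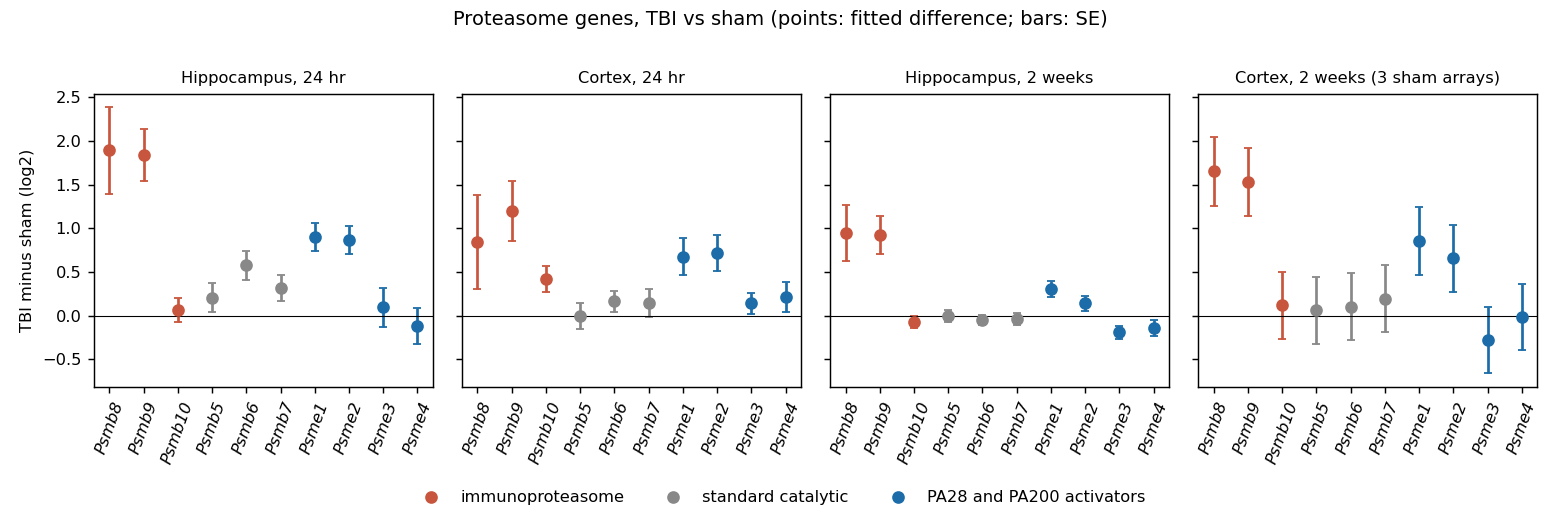
Fitted TBI minus sham difference (log2, vertical axis) with its SE for the immunoproteasome subunits (red), the standard catalytic subunits (gray) and the activators (blue) at 24 hr and 2 weeks, the cortex at 2 weeks without sham replicate 3. Psmb8 and Psmb9 lie highest in each panel, from 0.85 to 1.89, and Psmb10 lies between -0.07 and 0.42.

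At later intervals no gene of the 8 was called between TBI and sham in limma. Hippocampus counts were 0 of 6 at 3 months (0.0134% of probes called either way; 0 of 6 at an unadjusted p under 0.05), 0 of 8 at 6 months (0.0134%; 1 of 8 unadjusted) and 0 of 8 at 12 months (0%; 1 of 8 unadjusted). Cortex counts were 0 of 8 at 3 months (0%; 3 of 8 unadjusted), 0 of 8 at 6 months (0.0805%; 0 unadjusted) and 0 of 8 at 12 months (0%; 0 unadjusted). Tap1 and Tapbp in the cortex at 3 months passed the 1.4-fold change with an unadjusted p under 0.05, 2 of 8 against 1.29% of probes. Tap1 was at 0.66, 0.05, 1.65 and 0.66 in sham and 1.93, 1.94, 1.28 and 0.72 in TBI cortex (0.71 ± 0.31), with the 2 groups overlapping. Tapbp was at 1.94, 2.74, 3.07 and 2.74 in sham and 3.49, 3.48, 3.21 and 2.87 in TBI (0.64 ± 0.26).

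B2m in the hippocampus at 3 months was at 6.08, 6.01, 6.57 and 5.93 in sham and 5.69, 5.87, 5.85 and 5.86 in TBI, a difference of -0.33 ± 0.16 that was not called (adjusted p = 0.767). At 6 months Tapbpl was at 2.59, 2.06, 2.17 and 2.35 in sham and 2.20, 1.32, 1.38 and 1.45 in TBI (-0.71 ± 0.22, adjusted p near 1), 1 of 8 genes past the 1.4-fold change with an unadjusted p under 0.05, against 0.627% of probes lower. At 12 months all 8 differences were negative, from -0.46 to -0.08, with a median of -0.22 against -0.05 over all probes, and none was called. Psmb10 came nearest (6.62 to 7.06 in sham, 6.40 to 6.67 in TBI, with 1 sham array inside the TBI range; -0.34 ± 0.12, adjusted p = 0.276).

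Whether the effect of TBI differed between intervals was tested on the arrays of each design. Psmb10 in the hippocampus was the gene called: its TBI minus sham difference was 0.08 at 6 months and -0.34 at 12 months, a change of -0.43 ± 0.12 (adjusted p = 0.0362), 1 of 8 genes where 6.18% of probes were called lower. It was lost in 10 of 16 fits that left out an array and under scaling to the 75th percentile. From 24 hr to 3 months in the hippocampus the difference fell by 1.11 for Tap1, 1.67 for Psmb8, 1.62 for Psmb9, 1.06 for Tapbp and 1.17 for Tap2, with 0 of 7 called in limma (adjusted p of 0.0561 to 0.216) and 5 of 7 at an unadjusted p under 0.05. From 2 weeks to 3 months in the cortex without sham replicate 3, Psmb8 fell by 1.47 ± 0.58, Psmb9 by 1.05 ± 0.41 and B2m by 0.60 ± 0.20 (adjusted p of 0.232, 0.231 and 0.130), with 0 of 8 called. Intervals were on different slides, so interval and slide cannot be told apart.

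The tissues were not shown to differ in their response. The hippocampus minus cortex difference of the TBI effect at 24 hr was 0.22 ± 0.41 for Tap1, 0.64 ± 0.61 for Psmb9 and -0.36 ± 0.24 for Psmb10, and 0 of 6 genes were called (1 of 6, Tapbpl, at an unadjusted p under 0.05). At 2 weeks without cortex sham replicate 3 it was -0.25 ± 0.37 for Tap1, -0.71 ± 0.53 for Psmb8 and -0.60 ± 0.45 for Psmb9, with 0 of 7 called and 0 at an unadjusted p under 0.05. A difference that missed the threshold is not shown to be absent.

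The naive hippocampus and cortex were compared at 2 weeks, 6 months and 12 months. At 12 months, in the same 4 rats, B2m was at 8.65, 8.80, 8.95 and 8.89 in hippocampus, against 8.47, 8.52, 8.56 and 8.41 in cortex (0.33 ± 0.10, adjusted p = 0.0277). Psmb10 was at 6.70, 6.89, 7.05 and 6.80 in hippocampus, against 6.33, 6.37, 6.20 and 6.18 in cortex (0.59 ± 0.11, adjusted p = 0.00275), and Psmb9 differed by 0.44 ± 0.15 (adjusted p = 0.0488). The hippocampus was higher in every rat for both B2m and Psmb10. These were 3 of 8 genes, where 25.3% of all probes were called higher, so the share was near the background. With the rat as a block 6 of 8 were called, in a fit that called 6449 of 22634 probes higher and 3266 lower. At 2 weeks and 6 months 0 of 8 were called in limma (1 of 8 unadjusted at each), and between the last and the first naive interval 0 of 8 were called in either tissue (0 unadjusted in the cortex, 1 in the hippocampus).

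Between sham and naive rats the only gene called was B2m in the cortex at 12 months. It was at 8.06, 8.18, 8.33 and 8.15 in sham and 8.14, 8.17, 8.20 and 8.23 in TBI, below all naive arrays in both groups. The sham minus naive difference was -0.31 ± 0.07 (adjusted p = 0.0355), 1 of 8 genes where 0.282% of probes were called lower, and the TBI minus naive difference was -0.31 ± 0.07 (adjusted p = 0.0326), 1 of 8 where 1.9% were. Both share the naive arrays, which lay on another slide than the sham and TBI arrays. Slide and surgery cannot be told apart here. Neither count held with the replicate block (0 of 8 each), the sham count fell to 0 without naive replicate 1, 2 or 3 or sham replicate 1 or 2, and the TBI count fell to 0 without any array but naive replicate 4, without the filter and with quantile normalization.

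The order of the group means put injured cortex first for Psmb9, Psmb8, Tap1 and B2m. Of the 24 groups on the larger design, Psmb9 was highest in TBI cortex at 24 hr (5.19 ± 0.59, SD, n = 4) and at 2 weeks (5.15 ± 0.28), 2 means closer than their spread, then in naive hippocampus at 6 months (4.62 ± 1.31), whose arrays ran from 3.28 to 6.36. Psmb8 led with the same groups (5.20 ± 0.35 at 2 weeks, 5.01 ± 1.21 at 24 hr, 4.33 ± 1.60 in naive hippocampus at 6 months). Tap1 was highest in TBI cortex at 2 weeks, 24 hr, 6 months and 3 months (2.20, 2.02, 1.50 and 1.47) and then in TBI hippocampus at 2 weeks (1.41), with neighbours within their SD of 0.30 to 0.59 except between 24 hr and 6 months. B2m was highest in TBI cortex at 2 weeks (9.34 ± 0.18), ahead of naive hippocampus at 6 months (9.05 ± 0.89). Injured cortex was not first for every gene. On the same design Tapbp had its highest mean in naive hippocampus at 12 months, Psmb10 in naive hippocampus at 6 months and Tapbpl in sham cortex at 6 months. These groups lie on different slides and their order is a description.

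Over the 95 arrays of the larger design without cortex sham replicate 3, Psmb8 and Psmb9 followed each other most closely of the 28 pairs (Pearson r = 0.91), and B2m and Psmb9 next (r = 0.81). Tap1 and Psmb10 had r = 0.29, and Tapbpl had r of 0.00 to 0.12 with every other gene. The other genes whose level was most like the mean of the 8 standardized genes were Psme1 (r = 0.94), Vasp (0.91), Dnase2 (0.90), Irf1 (0.90), Psme2 (0.90), Vamp8 (0.89), Sp110 (0.89) and Timp2 (0.88), out of 10764. Irf1 encodes an interferon-responsive transcription factor of class I promoters. With all 96 arrays Dnase2, Sp110, Psme1, Irf1, Myd88, Tcirg1, Vasp and Lyl1 led (r of 0.91 to 0.93). Arrays share treatment, tissue and slide, so these correlations describe the arrays and carry no test.

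The class I heavy chains, which B2m and the loading complex serve, moved in the same comparisons. In the hippocampus 5 of 21 tested heavy chain genes were called higher at 24 hr (RT1-CE2, RT1-CE16, RT1-T18, RT1-CE13 and RT1-S3; 5.57% of all probes) and 5 of 22 at 2 weeks (RT1-CE13, RT1-T18, RT1-CE16, RT1-S2 and RT1-M6-2; 1.06% of all probes). The count was 10 of 22 in the cortex at 2 weeks without sham replicate 3 (2.13% of all probes), and no heavy chain was called lower in these comparisons. RT1-CE16 rose by 1.58 ± 0.28 and RT1-T18 by 1.36 ± 0.25 in the hippocampus at 24 hr, and by 0.79 ± 0.17 and 0.83 ± 0.14 at 2 weeks. Without that array, RT1-CE5 in cortex at 2 weeks rose by 3.63 ± 0.42 and RT1-A2 by 2.11 ± 0.42. Rat heavy chain genes are close copies of one another, so a probe may read several of them. Of 22 heavy chains none was called in the cortex at 24 hr (0 of 22 in limma, 14 at an unadjusted p under 0.05), with a median difference of 0.78 against 0.12 over all probes.

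Of the regulators and targets of interferon, Jak2, a kinase of the interferon receptors, was called higher in the hippocampus at 24 hr (0.74 ± 0.16) and Ifngr1, the interferon gamma receptor, at 2 weeks (0.55 ± 0.12). Irf8, a factor of myeloid cells, was called higher at 2 weeks in the hippocampus (1.65 ± 0.28) and in the cortex without sham replicate 3 (2.76 ± 0.41). No other gene of the interferon receptors and ligands or of the class I transcription regulators was called in these comparisons. Of all probes, 5.57% and 1.06% were called higher in the hippocampus at 24 hr and 2 weeks, and 2.13% in that cortex fit. Single calls are not read as a change of either list. Interferon-stimulated genes were called higher in 6 of 22 (5.57% of all probes) and lower in 1 of 22 (Igtp, -1.18 ± 0.15; 1351 of 16735 probes) in the hippocampus at 24 hr. They were called higher in 3 of 23 at 2 weeks (1.06% of all probes) and in 17 of 22 in the cortex at 2 weeks without sham replicate 3 (2.13%), where the chemokine Cxcl10 rose by 3.10 ± 0.41 and the antiviral Mx1 by 3.09 ± 0.41. Cortex at 24 hr had 0 of 26 called in limma, 14 at an unadjusted p under 0.05 and a median of 0.77. The peptide loading and trimming genes other than the 8 were called in none of 9 to 11 tested in these 4 comparisons, nor were the other proteasome subunits, 0 of 14 in each. From 3 months on no gene of these lists was called, 0 of 535 tests over both tissues (27 higher and 22 lower at an unadjusted p under 0.05).

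Markers of microglia and macrophages, which are rich in class I molecules, were called in 3 of these 4 comparisons. In the hippocampus 4 of 15 microglia and macrophage markers were called higher at 24 hr (5.57% of all probes), where the summed level of all 17 was 527.9 to 549.6 times the array median in sham and 617.8 to 829.1 in TBI, and 11 of 16 at 2 weeks (1.06% of all probes; 464.1 to 705.0 in sham, 814.1 to 1485 in TBI). In the cortex 0 of 17 were called at 24 hr (limma, 10 higher at an unadjusted p under 0.05; 536.1 to 725.8 in sham, 780.4 to 1059 in TBI) and 10 of 17 at 2 weeks without sham replicate 3 (2.13% of all probes; 627.6 to 727.2 in sham, 1405 to 2286 in TBI). T cell markers summed to 29.0 to 33.9 in these sham arrays and 44.7 to 86.9 in TBI cortex at 2 weeks, with 0 of 5 tested called. The 13 T cell markers were unevenly detected: Zap70 was well above background in 60 of 60 cortex and 53 of 53 hippocampus arrays, Cd3d in 59 and 49, Cd4 in 60 and 36, Cd3e in 8 and 49, Cd8a in 9 and 3, and Ccr7, the least detected, in 6 and 0. Endothelial markers had 0 of 9 called in the cortex at either interval and in the hippocampus at 2 weeks, and 1 of 8 called lower in the hippocampus at 24 hr. Their summed level overlapped between sham and TBI in 3 of these 4 comparisons, and was 261.7 to 291.7 in sham and 292.6 to 352.8 in TBI cortex at 2 weeks without sham replicate 3. Neutrophil markers summed to 4.62 to 5.60 in sham and 16.2 to 105 in TBI hippocampus at 24 hr, and to 6.43 to 46.3 and 14.8 to 167 in the cortex. No natural killer or cytotoxic cell marker passed the filter in the hippocampus at 24 hr or 2 weeks, or in the cortex at 2 weeks. Markers of other brain cells also moved in the cortex at 2 weeks without sham replicate 3. Neuron markers summed to 1690 to 1791 in sham and 1322 to 1650 in TBI, and astrocyte markers to 2231 to 2410 and 2521 to 2633. Oligodendrocyte markers overlapped (4257 to 6798 and 5639 to 6516). The part of these cells in the differences of the 8 genes was not tested, and in bulk tissue more cells of a type and more RNA per cell cannot be told apart.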

How the data were processed

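Spot intensities of 113 arrays, deposited as written by Agilent Feature Extraction 11.5.1.1 (per the labels' processing notes), were used: the authors deposited a processed signal that was already background-subtracted, beside flags for background and saturation. The authors also deposited an intensity table per array design, linear and proportional to the processed signal within each array (median array: 99.9% of values within 0.05 log2 units), which was used as an alternative. The processed signal was averaged over replicate spots, taken as log2 and reduced by the median of the array over probes that are not controls. Genes were named by joining RefSeq accessions to a RefSeq gene table, which named 46.3% and 61.4% of the probes of the larger and smaller design; a gene was read from its brightest probe of the design.

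In R 4.3.3, limma 3.58.1 (lmFit, contrasts.fit, eBayes) was fitted to all groups of a tissue and interval, without a block, with Benjamini-Hochberg adjustment over probes that all arrays of either compared group read well above background. Adjusted p-values all come from limma. A fold change of 1.4 with an unadjusted p under 0.05, the threshold of the methods, was the other call rule. The fits were tested on simulated data with known changes. Precision is limited by the number of arrays; p-values measure the spread between the arrays of a group. The 8 genes, the gene and marker lists and the tests were chosen with earlier results of these data known. All 8 genes are named in every comparison; of the other lists all genes of short lists and otherwise up to 4 called genes with the largest change, and the 8 genes with the highest correlation with the mean of the 8. RT1-S3, RT1-M6-2, Igtp and the T cell markers fall outside this rule and were named after their values were seen.

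Within a tissue, no comparison had every pair of arrays with the same replicate number deviate together from their group means (each r over 0.1). No pairing was used there. The nearest was sham and naive hippocampus at 3 months (r of 0.098 to 0.325). Animal numbers in the array names tie both tissues of 28 rats (deviations correlated from r = -0.05 to 0.51 at 2 weeks, -0.14 to 0.53 at 6 months and -0.01 to 0.29 at 12 months). These pairs from the same rat failed the same rule, so it cannot exclude pairing. Alternatives were scaling to the 75th percentile, quantile normalization, the deposited table, no filter, normexp background correction on the median spot signal, only the groups compared, a replicate or slide block, and leaving out each array.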

Additional observations from a re-analysis of the deposited data

Results flagged for a closer look

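In 20 of 216 groups of 4 arrays (9.26%) the highest or lowest array lay farther from the rest than Dixon's 95% limit; chance alone gives about 1 in 20 groups. Cortex sham replicate 3 at 2 weeks gave 4 of them, with B2m at 3.22, Psmb10 at 1.92, Psmb9 at 0.686 and Tap2 at 0.444. In the same interval cortex TBI replicate 3 was lowest for B2m (9.07) and Psmb9 (4.73), and cortex naive replicate 4 for Tap2 (1.77). In the cortex, Psmb10 was also apart in sham replicate 1 at 3 months (5.27) and TBI replicate 2 at 6 months (6.37), Tap2 in TBI replicate 1 at 6 months (3.58), Tapbp in naive replicate 4 at 3 months (2.41) and Tapbpl in naive replicate 2 at 24 hr (-2.58). In the hippocampus at 3 months TBI replicate 1 was apart for B2m (5.69) and Psmb9 (3.56), sham replicate 3 for Psmb10 (7.19) and sham replicate 1 for Tap1 (-0.88). Other hippocampal arrays were Psmb8 in naive replicate 2 at 12 months (3.65), Tap1 in sham replicate 1 at 12 months (0.28), Tapbp in TBI replicate 2 at 2 weeks (2.46) and Tapbpl in TBI replicate 1 at 6 months (2.20).

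Psmb10 in the hippocampus had a TBI minus sham difference that changed by -0.43 from 6 to 12 months, by the test of that change; its means were 6.82 in TBI and 6.74 in sham at 6 months, and 6.53 and 6.88 at 12 months. The TBI and sham arrays of 6 months lay on different slides and those of 12 months on 1 slide, and the part of the slide was not tested.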

How the results depend on the processing

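Counts are of the 8 genes called. Between TBI and sham, hippocampus at 24 hr had 2 in the reported fit, 1 with the deposited table, 0 without the filter or with the replicate block, and 5 with normexp or with the 1.4-fold rule. Hippocampus at 2 weeks had 1 as reported, 3 with 75th percentile scaling, the deposited table, normexp or the 1.4-fold rule, 2 with quantile normalization, and 0 without the filter, with the replicate block or with only the groups compared. Cortex at 24 hr had 1 as reported, 0 with 75th percentile scaling, quantile normalization, the deposited table or the replicate block, 3 without the filter, 6 with normexp and 4 with the 1.4-fold rule. Cortex at 2 weeks with all arrays had 0 as reported, 1 with 75th percentile scaling, quantile normalization or normexp, 2 without the filter, 4 with the 1.4-fold rule, and 4 without sham replicate 3 and with only the groups compared, a setting chosen after seeing the data. The 1.4-fold rule gave 2 in cortex at 3 months and 1 in hippocampus at 6 months, against 0. Between TBI and naive, cortex at 12 months had 1, and 0 with quantile normalization, no filter or the replicate block; cortex at 2 weeks had 0, 2 with 75th percentile or quantile scaling and 1 with the deposited table; hippocampus at 2 weeks had 1, and 0 without the filter; hippocampus at 6 months had 0, 2 with 75th percentile scaling or the deposited table and 1 with quantile normalization or the replicate block. Between sham and naive, cortex at 12 months had 1, 2 with 75th percentile scaling, the deposited table or no filter, and 0 with the replicate block; cortex at 24 hr had 0, and 1 without the filter; hippocampus at 6 months had 0, and 1 with 75th percentile scaling, quantile normalization or the deposited table. Between naive tissues the count was 6 in place of 3 at 12 months with the replicate block (here the rat), and with 75th percentile scaling 1 at 2 weeks and 2 at 6 months in place of 0. With that scaling, naive cortex between 24 hr and 12 months had 2 in place of 0, and the change of the TBI effect in the hippocampus 0 in place of 1 (6 to 12 months) and 1 in place of 0 (24 hr to 3 months).

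Leaving out 1 array at a time gave counts between TBI and sham of 0 to 4 in the hippocampus at 24 hr and 2 weeks and 0 to 3 in the cortex at 24 hr and 2 weeks. Between TBI and naive they ran from 0 to 4 (cortex, 24 hr), 0 to 2 (cortex, 12 months; hippocampus, 2 weeks) and 0 to 1 (hippocampus, 6 months). Between sham and naive they were 0 to 1 in the cortex at 24 hr and 12 months and the hippocampus at 6 months. Between naive tissues they were 1 to 5 at 12 months and 0 to 1 at 6 months. For the change of the TBI effect in the hippocampus they were 0 to 1 (6 to 12 months, 2 weeks to 6 months) and 0 to 2 (24 hr to 3 months). All other counts were unchanged in these fits. Over all probes, the filter changed the calls: hippocampus at 24 hr had 932 higher and 1351 lower with it and 0 of each without, and cortex at 24 hr 55 higher and 1 lower against 1639 and 8012; normexp gave 4251 higher there. Of 1298 values of single genes under other settings, 1176 kept direction and side of the threshold, 29 lost and 52 gained a call and 0 reversed. Another 41 changes of sign were of uncalled values. Most values were uncalled as reported, and only called ones can lose a call or count as reversed. In hippocampus at 24 hr Psmb9 kept its call in 11 of 14 settings and Tap1 in 8 of 14. Tap1 kept it in 9 of 18 in hippocampus at 2 weeks, and Tapbpl in 6 of 17 in cortex at 24 hr. The causes were not tested. Dim probes limit Tapbpl and Tap1. The slide as a block was not run where slide and group coincide, and the replicate block for the difference between tissues only at 2 weeks and 6 months.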
